A study of Mus musculus with 5 samples.

Results

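The collagen chain genes are the 44 genes of the mouse liver organoid series whose symbol is Col, a number, a and a number. They were taken by symbol from 52029 genes in a table of 4 libraries, and the same 44 symbols were found among the 45775 gene symbols of a second table that holds 1 more library. Hepatobiliary organoids are epithelial cultures, here started with stem/progenitor cells taken from the liver of wild-type mice, and total RNA depleted of ribosomal RNA was sequenced from them. Co-cultured organoids grew together with liver endothelial cells and were at passage 8 and day 10, with 3 libraries, M9 and M10 in the shared table and the third library in a table of its own. Organoids alone were at passage 1 and day 10, with 2 libraries, M11 and M12. Both groups received the same medium, with EGF, heparin, ECGS, nicotinamide, serum replacement, antibiotics and the ROCK inhibitor Y-27632. The effect of the co-culture and that of the passage cannot be told apart, and since no label says that libraries are from separate cultures, the p-values rest on a spread between libraries that may be technical.

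Collagens are secreted or membrane proteins made of 3 chains wound into a triple helix, and each chain has its own gene. Type IV chains form the sheet-like network of basement membranes, on which bile duct epithelium sits. Fibrillar chains form the cables of connective tissue, which in liver are laid down mainly by stellate cells and fibroblasts, and FACIT chains attach to the surface of such fibrils. Transmembrane chains stay anchored in the cell that makes them. Before secretion the chains are hydroxylated, folded with the help of a dedicated chaperone, and then trimmed and crosslinked outside the cell.

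The co-culture libraries M9, M10 and the third held 33881617, 35878241 and 58853737 counts, against 26466739 and 29195328 in M11 and M12. Of 14 endothelial markers, Clec4g was at 0 in all 5 libraries, and Pecam1 had 2, 2 and 10 counts in M9, M10 and the third library against 1 and 2 in M11 and M12. Cdh5 had 6, 5 and 19 counts against 3 and 2. Summed over the endothelial list, co-cultures stood at 5.46 CPM in M9 and 3.80 CPM in M10, against 3.60 and 3.09 CPM in M11 and M12, and scaled over 5 libraries the third library stood at 3.13 CPM against 3.81 and 3.25 CPM, where CPM is a count scaled to a common library size by TMM. Of the list, 3 were tested and 0 called by edgeR. The marker with the most counts in M9 and M10 was Flt1, a VEGF receptor, with 113, 69 and 54 counts in M9, M10 and the third library against 27 and 35 in M11 and M12, a log2 ratio of 1.28 in M9 and M10 (unadjusted p = 0.039, adjusted p = 0.254). The defining markers Pecam1, Cdh5 and Clec4g were thus at or near 0 in co-culture libraries too. In bulk RNA, fewer cells of a type and less RNA per cell cannot be told apart. The cholangiocyte and progenitor list was abundant in every library, with Epcam at 635 and 529 CPM in M9 and M10 against 618 and 713 CPM in M11 and M12, and 3 of its 10 members, Krt7, Krt19 and Prom1, rose in the edgeR test of M9 and M10 against M11 and M12, in which 0.994% of all genes rose. The third library lay below the organoids alone by log2 differences of -0.80 for Krt7 and -0.60 for Krt19, unlike M9 and M10, but above them by 1.29 for Prom1, as did M9 and M10 by 1.19. It also held 3847 counts of the hepatocyte gene Alb, against 5 and 9 in M9 and M10 and 442 and 1472 in M11 and M12, so results are given with and without it.

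The 44 chains together took a small share of the RNA that lay in the same range in both groups, and the chains Col4a1, Col4a2 and Col18a1 made up most of it. Collagen chains held 0.204%, 0.226% and 0.213% of all counts in M9, M10 and the third library, against 0.211% and 0.220% in M11 and M12. Of these collagen counts, Col4a1, Col4a2 and Col18a1 held 92.2%, 84.7% and 88.6% in the co-cultures, against 89.7% and 87.9% in the organoids alone. Counts favour long transcripts, and after division by the merged exon length of each gene the same 3 chains held 94.3%, 88.9% and 91.3% in the co-cultures and 91.6% and 89.6% in the organoids alone.

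**Figure D1:**
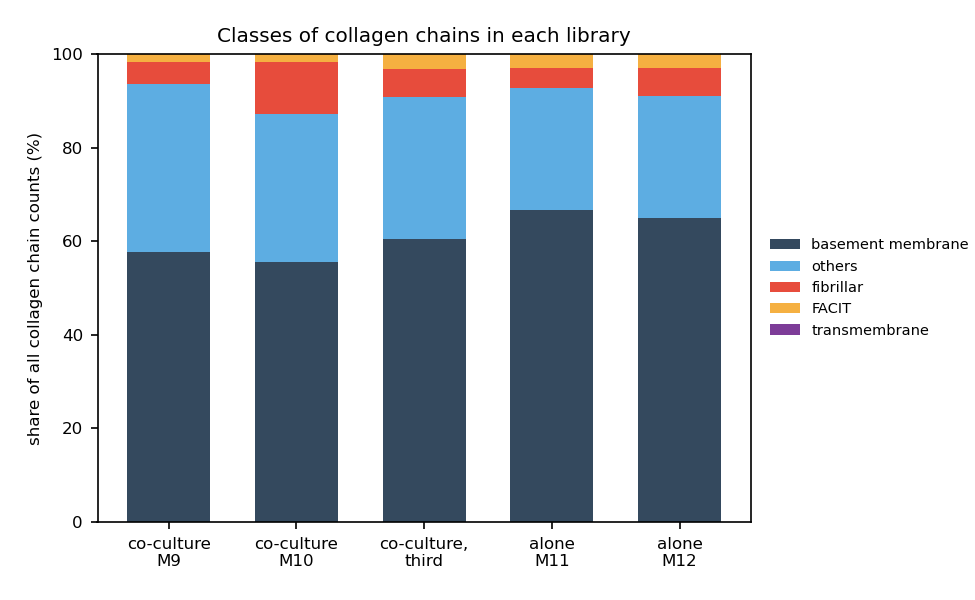
Share of collagen chain counts (vertical axis, %) held by each class in each library, co-cultures left and organoids alone right. Basement membrane chains, here type IV without Col18a1, hold 57.7%, 55.6% and 60.6% in the co-cultures and 66.6% and 64.9% in the organoids alone.

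By class, the basement membrane chains, here type IV alone, held a lower share of collagen counts in all 3 co-cultures than in both libraries alone. They held 57.7%, 55.6% and 60.6% against 66.6% and 64.9%. The other chains, nearly all of it Col18a1, held 35.9%, 31.6% and 30.2% in the co-cultures and 26.2% and 26.2% in the organoids alone. Col18a1 is also of the basement membrane zone, and shares of a whole depend on each other. With Col18a1 added, Col4a1 and Col4a2 held 92.2%, 84.7% and 88.6% in the co-cultures against 89.7% and 87.9%, which overlap. Fibrillar chains held 4.64%, 11.1% and 6.05% in the co-cultures, against 4.37% and 5.93% in the organoids alone, so their ranges overlap. FACIT chains held between 1.70% and 3.19% in the co-cultures and 2.84% and 2.98% in the organoids alone. Transmembrane chains held under 0.05% in every library.

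**Figure D2:**
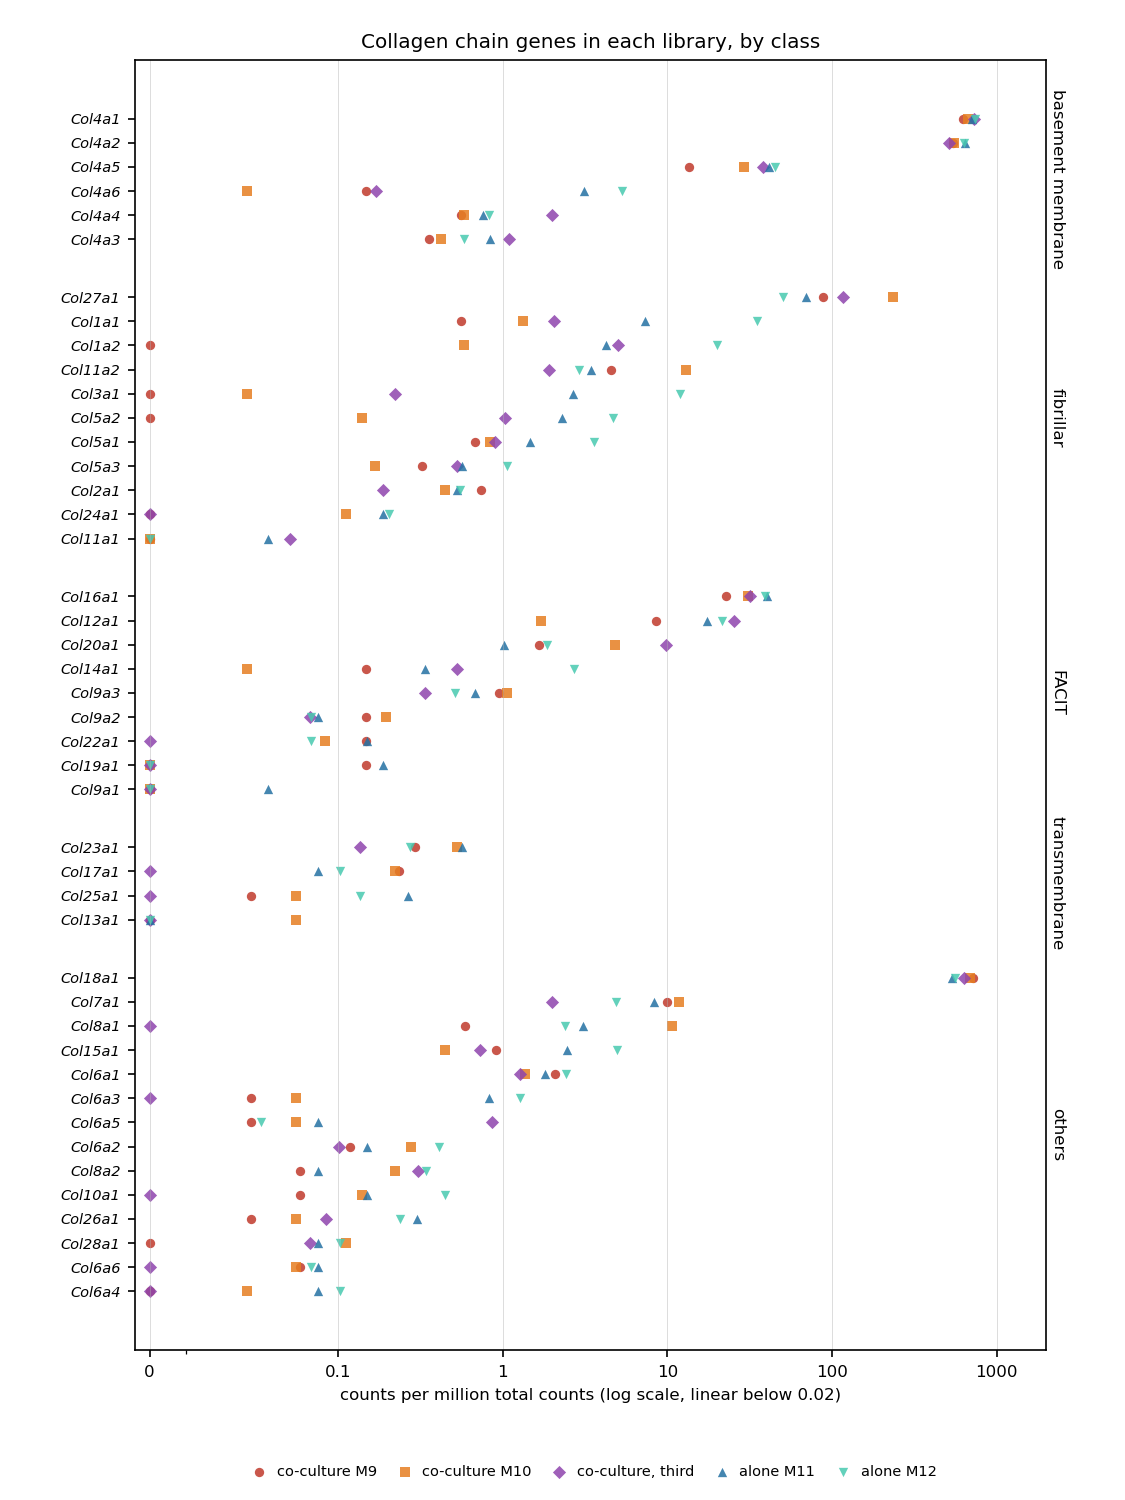
Counts per total counts, as unscaled CPM (horizontal axis, log scale with a linear part near 0) of all 44 chains, grouped by class, with a symbol for each library. Col4a1, Col4a2 and Col18a1 lie at the right edge with the 5 libraries close together, while Col1a1, Col1a2, Col3a1, Col5a2 and Col4a6 spread widely with M12 highest.

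Between chains, levels were compared as CPM without TMM scaling, divided by kilobases of merged exons. The same 3 chains came first in all 5 libraries, in changing order. Col18a1 was at 102, 97.9 and 90.8 in M9, M10 and the third library, against 76.0 and 79.6 in M11 and M12. Col4a1 was at 83.7, 90.1 and 98.1 in the co-cultures and at 95.3 and 99.3 in the organoids alone, and Col4a2 at 81.5, 83.3 and 78.1 against 97.5 and 95.6. Col18a1 thus ranked first in M9 and M10, second in the third library and below both type IV chains in M11 and M12. These 3 levels lie close together, and the length taken for each gene enters their order. Col27a1, Col16a1 and Col4a5 came next, between 2.02 and 18.0 in the co-cultures and between 3.87 and 6.74 in the organoids alone, except that Col1a1, at 5.34, ranked above Col27a1 in M12. All other values were below 2 on this scale.

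The test compared M9 and M10 with M11 and M12 over 15899 genes with edgeR's quasi-likelihood method, and 27 of the 44 chains passed its low-count filter. Of these 27, 3 fell at a Benjamini-Hochberg adjusted p under 0.05, where 1.25% of all genes tested fell, and 0 rose, where 0.994% rose and 2.24% were called in either direction. The chains that fell were Col4a6, Col3a1 and Col6a3. All 3 passed the filter only through their counts in the organoids alone, as did Col14a1, Col1a2, Col5a2 and Col5a3, so these 7 entered the test only through higher counts in the organoids alone, and their direction is no separate support. Of the 19 chains that passed through both groups, 0 were called, 11 had a negative and 8 a positive log2 ratio. At an unadjusted p under 0.05 there were 12 lower and 3 higher chains among the 27, against 17.5% of all genes in either direction, and DESeq2 called 8 of the 44 lower and 1 higher, where it called 4.05% of all genes lower and 3.81% higher. The median log2 ratio, co-culture over alone, was -0.51 over the 27 chains and 0.00058 over all genes tested. M9 and M10 both lay below M11 and M12 for 17 of the 27 and both above for 5, where the background was 25.1% and 24.3%. The 12 lower chains, these 17 and the median of the 27 include the 7 chains that entered only through the organoids alone. The filter thus tilts these figures toward lower values, and they are no support for a direction. By edgeR none of the chains was called without M12 or with all 5 libraries in the fit (1438 and 1430 of all genes at an unadjusted p under 0.05), and 1, Col3a1, without M11, where 0.222% of all genes were lower. Without M9 it called 5 lower (Col12a1, Col15a1, Col4a6, Col5a2 and Col6a3) and 4 higher (Col11a2, Col20a1, Col27a1 and Col8a1), where 7.92% of all genes were called lower and 7.74% higher. Without M10 it called 6 lower (Col12a1, Col16a1, Col4a5, Col4a6, Col5a2 and Col6a3), where 3.72% were called lower.

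**Figure D3:**
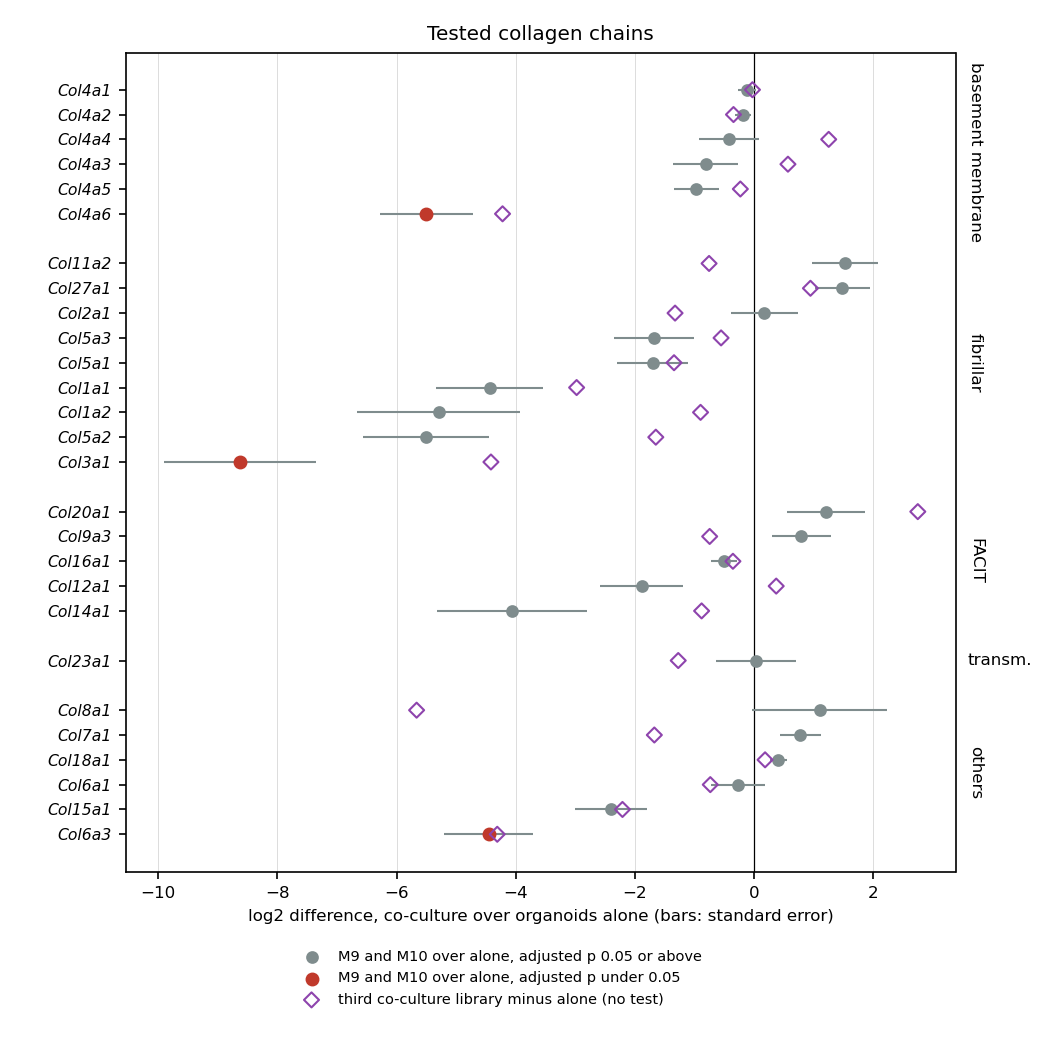
Log2 difference of co-culture over organoids alone (horizontal axis) for the 27 tested chains by class; filled points are M9 and M10 with standard errors and open diamonds the third co-culture library, which has no test. Red points mark Col4a6, Col3a1 and Col6a3, and the diamonds of these 3 also lie left of -4.

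The third co-culture library, scaled over all 5 libraries, was set against M11 and M12, averaged as log2 CPM. Of the 19 chains that passed the filter through both groups, it lay below for 13 and above for 6, where 51.3% of the genes tested and found in both tables lay below. It was at least 2-fold below for 6 of the 19 and at least 2-fold above for 2, Col20a1 and Col4a4, where the background was 17.6% and 13.1%. The 7 chains that passed only through the organoids alone, whose levels are the baseline here, all lay below, 4 of them at least 2-fold, and are given as a description. This library shares M11 and M12 with the test above and comes from another gene annotation, so its differences are given beside the others and not as a second test.

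Among the basement membrane chains, the main network pair was not called and the rarer Col4a6 fell. Col4a1 and Col4a2 encode the chains of the type IV network found in almost all basement membranes. Col4a1 was at 628 and 689 CPM in M9 and M10, against 692 and 742 CPM in M11 and M12, a log2 ratio of -0.12 ± 0.15 (SE, here and below the fitted co-culture over alone; adjusted p = 0.742, edgeR). Col4a2 was at 543 and 565 CPM against 627 and 633 CPM, a log2 ratio of -0.19 ± 0.14 (SE; adjusted p = 0.567). In both genes M9 and M10 lay below the organoids alone without overlap, but neither gap passed the test. Per kilobase, Col4a1 stood to Col4a2 as 1.03, 1.08 and 1.26 in M9, M10 and the third library, against 0.978 and 1.04 in M11 and M12. Both genes lie head to head on chromosome 8, Col4a1 from 11198423 to 11312826 on the minus strand and Col4a2 from 11312805 to 11449287 on the plus strand (GRCm38), and their annotated starts overlap by 22 bases.

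Col4a5 and Col4a6, which encode chains of a type IV network of skin and smooth muscle basement membranes, differed in how far M9 and M10 lay below the organoids alone. Col4a6 had 5, 1 and 10 counts in M9, M10 and the third library, against 82 and 154 in M11 and M12. All 3 co-cultures were low, and the groups did not overlap. It averaged 0.0885 ± 0.0848 CPM in M9 and M10 and 4.15 ± 1.61 CPM in the organoids alone (SD, n = 2 each), giving a log2 ratio of -5.50 ± 0.78 (SE; adjusted p = 0.0348, edgeR). The call was lost without M11 (log2 ratio -5.84, adjusted p = 0.0959) and without M12 (-5.04, adjusted p = 0.213), and the value was -6.98 without M9 and -4.76 without M10, both called. With the third library added to the fit it was -5.12 (adjusted p = 0.207), and over all alternatives the adjusted p ran from 7.58e-09 to 0.213. Its neighbour Col4a5 had 460, 1051 and 2235 counts in M9, M10 and the third library, against 1100 and 1322 in M11 and M12. That is 13.7 and 30.0 CPM in M9 and M10 against 40.4 and 45.3 CPM, a log2 ratio of -0.97 ± 0.37 (SE; adjusted p = 0.263), and -1.65 without M10 (adjusted p = 0.00138, within a range over all alternatives up to 0.77). The third library was at -0.23 for Col4a5 and at -4.22 for Col4a6 on the log2 scale. Per kilobase, Col4a5 stood 109 and 265 times above Col4a6 in M9 and the third library, where Col4a6 rests on 5 and 10 counts, against 15.9 and 10.2 times in M11 and M12.

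Col4a6 lies on chromosome X from 141165403 to 141474076 on the minus strand and Col4a5 from 141475385 to 141689234 on the plus strand (GRCm38), so 1308 bases separate their annotated starts. The sequences just upstream of both are shown because the neighbours share this short interval and differ in their counts. They are RefSeq promoter sequence of GRCm38.p6, written 5′ to 3′ on the strand of the gene, chrX:141474077-141474326 for Col4a6 and chrX:141475169-141475384 for Col4a5, and leave out annotated exons. Capitals mark GGGCGG or CCAAT on either strand, the letters of the GC box and the CCAAT box.
Col4a6: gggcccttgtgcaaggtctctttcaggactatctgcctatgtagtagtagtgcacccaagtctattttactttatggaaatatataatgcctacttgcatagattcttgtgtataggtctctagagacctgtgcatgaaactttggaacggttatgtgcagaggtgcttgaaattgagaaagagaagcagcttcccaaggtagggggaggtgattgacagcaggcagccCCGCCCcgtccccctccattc
Col4a5: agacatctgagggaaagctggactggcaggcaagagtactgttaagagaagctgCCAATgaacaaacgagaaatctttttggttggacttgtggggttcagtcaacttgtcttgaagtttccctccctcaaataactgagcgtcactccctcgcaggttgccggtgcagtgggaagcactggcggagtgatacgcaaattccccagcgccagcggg
The Col4a6 sequence holds GGGCGG once, as its complement, starting 21 bases before the annotated start given above, and no CCAAT. The Col4a5 sequence holds CCAAT once, starting 162 bases before its annotated start, and no GGGCGG. Of all 32851 upstream windows of 250 bases in the RefSeq set, 32.7% hold GGGCGG and 33.9% hold CCAAT on either strand. Of 38 such windows of 35 collagen chain genes, 22 hold GGGCGG and 13 hold CCAAT.

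The remaining type IV chains, Col4a3 and Col4a4, which pair with Col4a5 in the kidney filter, were scarce. Col4a4 had 19, 21 and 118 counts in M9, M10 and the third co-culture library, against 20 and 24 in M11 and M12. Col4a3 had 12.1, 15.2 and 64 counts against 22.1 and 17.1. Neither was called (adjusted p = 0.741 and 0.527, edgeR), and the third library stood above the organoids alone by 1.25 for Col4a4 and 0.57 for Col4a3 on the log2 scale, the other way from M9 and M10. These genes also lie head to head, on chromosome 1, with 71 bases between their annotated starts.

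The fibrillar chains had ratios of both signs. Types I, III and V, the fibrils of connective tissue, had negative log2 ratios, and of them Col3a1 fell, whereas Col27a1 and Col11a2, fibrillar chains best known from cartilage, had positive ones that did not pass the test. The chains Col1a1, Col1a2, Col3a1, Col5a1 and Col5a2 of types I, III and V, without Col5a3, summed to 42 and 105 counts in M9 and M10. M11 and M12 had 476 and 2197. In CPM these sums are 1.25 and 3.00 against 17.5 and 75.3, so the organoids alone also differed widely between themselves, with M12 far above M11. On the scaling over 5 libraries the third co-culture library was closer to M11, at 9.36 CPM against 18.5 and 79.4 CPM in M11 and M12.

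Col3a1 encodes the only chain of type III collagen. It had 0, 1 and 13 counts in M9, M10 and the third co-culture library, against 71 and 351 in M11 and M12, and no co-culture reached the lower of the libraries alone. As 1 count in M9 and M10 together stands against 422 in M11 and M12, the counts per total were 529-fold lower in co-culture, with an exact binomial 95% interval from 94.4 to 20939 that covers counting error only (adjusted p = 0.0371, edgeR). The call was lost without M12 (adjusted p = 0.148), without M9 (0.167), without M10 (0.233), by limma-voom (0.0771) and with all 5 libraries (0.278), and its lowest adjusted p among the alternatives was 1.44e-06. With a library left out, the fitted log2 ratio was -10.78 without M10, -9.35 without M11, -7.80 without M9 and -7.15 without M12. With all 5 libraries the ratio was weaker, at -6.31. Col3a1 lies at bases 45311538 to 45349706 of chromosome 1 (GRCm38, plus strand). Its 250 bases upstream, chr1:45311288-45311537 of GRCm38.p6 from RefSeq, are shown as those of the called chain with the largest fold between M9 and M10 and the organoids alone, with TATAAA on either strand in capitals.
Col3a1: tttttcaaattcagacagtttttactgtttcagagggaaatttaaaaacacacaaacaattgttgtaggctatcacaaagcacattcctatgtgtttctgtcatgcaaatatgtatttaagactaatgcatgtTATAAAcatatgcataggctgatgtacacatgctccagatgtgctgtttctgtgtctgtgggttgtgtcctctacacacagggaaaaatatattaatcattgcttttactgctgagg
TATAAA starts 117 bases before the annotated start, and CCAAT and GGGCGG are not among these letters. TATAAA was in 12.4% of all upstream windows and in 5 of the 38 of collagen chain genes.

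**Figure D4:**
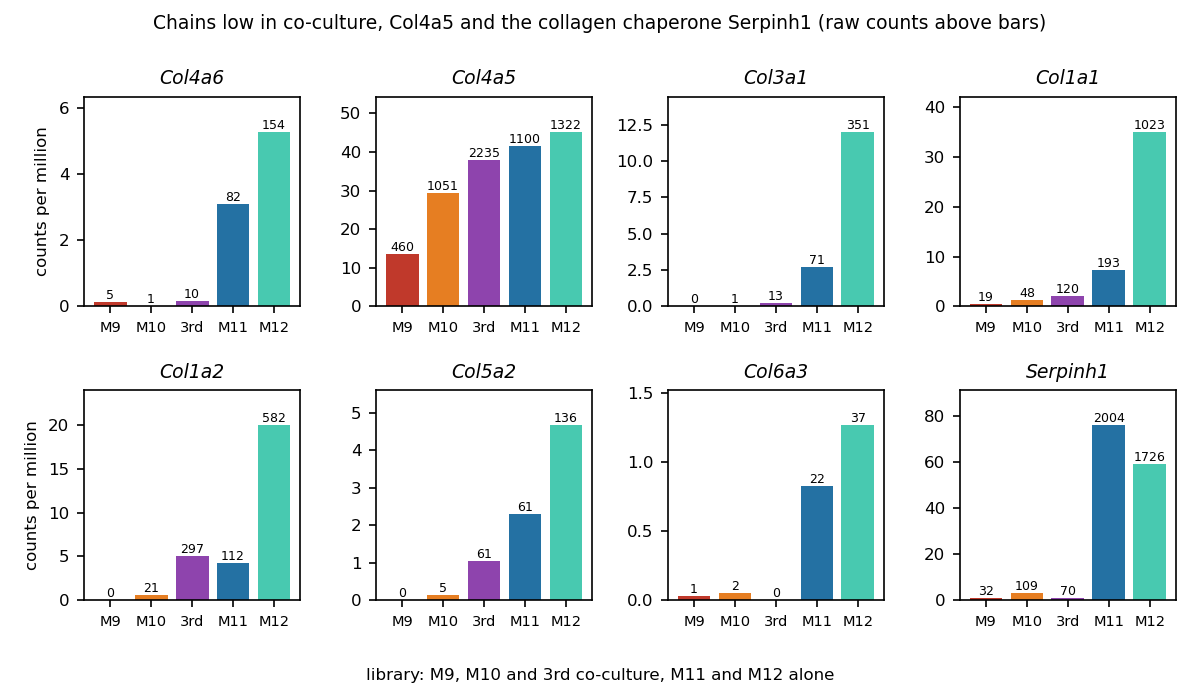
Counts per total counts, as unscaled CPM (vertical axis, 1 panel per gene, raw counts above the bars) in the co-cultures M9, M10 and the third library, left, and the organoids alone M11 and M12, right. Col4a6, Col3a1, Col6a3 and Serpinh1 are low in all 3 co-cultures, while the third library lies above M11 for Col1a2 and near it for Col4a5.

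Col1a1 and Col1a2 encode the chains of type I collagen, the main fibril of scar tissue. Col1a1 had 19, 48 and 120 counts in M9, M10 and the third library, against 193 and 1023 in M11 and M12. Col1a2 had 0, 21 and 297 counts against 112 and 582. Col1a1 was thus lower in each co-culture, while Col1a2 of the third library, at 5.11 CPM on the scaling over 5 libraries, lay above M11 at 4.35 CPM and below M12. Neither passed the test, with log2 ratios of -4.44 ± 0.89 for Col1a1 (SE; adjusted p = 0.0762, edgeR) and -5.30 ± 1.37 for Col1a2 (adjusted p = 0.129). Without M12 they were -2.87 and -3.76, and DESeq2 called Col1a1 lower (adjusted p = 0.00336, against up to 0.519 over the alternatives). Per kilobase, Col1a1 stood to Col1a2 as 4.33 in M10 and 0.765 in the third library, against 3.26 and 3.33 in M11 and M12.

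The chains of type V collagen, which regulate the width of type I fibrils, also had negative log2 ratios that did not pass the test. Col5a2 had 0, 5 and 61 counts in M9, M10 and the third library, against 61 and 136 in M11 and M12, a log2 ratio of -5.50 ± 1.06 (SE; adjusted p = 0.0669, edgeR). It was -9.70 without M10 and -4.54 without M9, and it was called lower by DESeq2 (adjusted p = 9.26e-07) and without a low-count filter (2.86e-05), while the adjusted p reached 0.573 with all 5 libraries. Col5a1 had 23, 30 and 53 counts against 39 and 105, a log2 ratio of -1.70 ± 0.59 (adjusted p = 0.222) that was -0.89 without M12. Col5a3 had 11, 6 and 31 counts against 15 and 31, a log2 ratio of -1.69 ± 0.67 (adjusted p = 0.278).

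Col27a1 was the most abundant fibrillar chain per kilobase in every library but M12, where Col1a1 was above it. It stood at 88.3 CPM in M9 and 240 CPM in M10, against 67.3 and 50.4 CPM in M11 and M12, with no overlap but a wide gap between M9 and M10. The log2 ratio was 1.48 ± 0.46 (SE; adjusted p = 0.186, edgeR), 0.59 without M10 and 2.04 without M9 (adjusted p = 0.000226), and DESeq2 called it higher (adjusted p = 0.00848, against up to 0.687 over the alternatives). The third library was above the organoids alone by 0.94. Col11a2 had 155, 469 and 112 counts in M9, M10 and the third library, against 91 and 85 in M11 and M12, a log2 ratio of 1.52 ± 0.55 (adjusted p = 0.237) that was 0.56 without M10 and 2.11 without M9, while the third library was lower by a log2 difference of -0.76. Col2a1, the cartilage fibril chain, had 25, 16 and 11 counts against 14 and 16, with a log2 ratio of 0.17 ± 0.56 (adjusted p = 0.916). Col24a1 and Col11a1 had at most 6 counts in any library and were not tested.

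Of 9 FACIT chains, 5 were tested and 0 called by edgeR (2 at an unadjusted p under 0.05, against 17.5% of all genes). DESeq2 called Col12a1 and Col14a1 lower, where it called 4.05% of all genes lower. Col16a1, found near basement membranes, was the most abundant, with 23.0 and 31.7 CPM in M9 and M10 against 39.0 and 39.0 CPM in M11 and M12, a log2 ratio of -0.51 ± 0.21 (SE; adjusted p = 0.3, edgeR). Col12a1, which binds type I fibrils, had 290, 61 and 1505 counts in M9, M10 and the third library, against 459 and 623 in M11 and M12. Its log2 ratio of -1.88 ± 0.70 (adjusted p = 0.245) became -3.44 without M9 (adjusted p = 0.000129) and -1.15 without M10 (0.0331), against an adjusted p of up to 0.802 over the alternatives, and the third library was above the organoids alone by 0.37. Col14a1, another partner of type I fibrils, had 5, 1 and 31 counts against 9 and 79, a log2 ratio of -4.06 ± 1.26 (adjusted p = 0.183) that was -1.86 without M12. Col20a1 had 56, 172 and 577 counts against 27 and 54, with M9 inside the range of M11 and M12 by CPM, a log2 ratio of 1.21 ± 0.66 (adjusted p = 0.428) that was 0.23 without M10. In the third library it stood above by 2.74. Of the type IX chains, Col9a3 had 32, 38 and 20 counts against 18 and 15 while its partner Col9a1 had 0 counts in all co-cultures and 1 and 0 in M11 and M12. Col9a2, Col19a1 and Col22a1 had at most 7 counts in any library.

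Of 4 transmembrane chains, 1 passed the low-count filter. Col17a1, the hemidesmosome collagen of stratified epithelium, had 8, 8 and 0 counts in M9, M10 and the third library, against 2 and 3 in M11 and M12. Col23a1 had 10, 19 and 8 counts against 15 and 8, with a log2 ratio of 0.03 ± 0.68 (SE; adjusted p = 0.989, edgeR). Col25a1 had 1, 2 and 0 counts against 7 and 4, and Col13a1 had 0, 2 and 0 against 0 and 0. For Col25a1 the 3 counts of M9 and M10 against 11 make a lower count per total, with an exact binomial 95% interval of the fold from 1.21 to 25.7 for counting error only, which leaves out the spread between libraries.

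Among the other chains, Col18a1 of the epithelial basement membrane zone, whose fragment is endostatin, was the only one at a high level. It was at 724 and 704 CPM in M9 and M10, against 519 and 559 CPM in M11 and M12, with no overlap, and averaged 714 ± 13.7 CPM in M9 and M10 and 539 ± 28.8 CPM in the organoids alone (SD, n = 2 each). The log2 ratio of 0.41 ± 0.14 (SE) did not pass (adjusted p = 0.225, edgeR), ranged from 0.36 to 0.46 with 1 library left out, and the third library was above by 0.18. Col18a1 lies at bases 77052178 to 77166548 of chromosome 10 (GRCm38, minus strand), where the annotation places Slc19a1 on the other strand, and predicted genes lie within Col4a6, Col3a1 and Col6a3. How such reads were assigned cannot be seen, since whether the counting used strand is not given in the sources used here. Col15a1, the related multiplexin of vessels and muscle, had 31, 16 and 43 counts in M9, M10 and the third library, against 65 and 144 in M11 and M12. It was low in all 3 co-cultures, at -2.41 ± 0.60 (adjusted p = 0.121 by edgeR, 0.00542 by DESeq2) and -2.21 in the third library.

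Type VI collagen, a beaded filament of connective tissue that needs chains from Col6a1, Col6a2 and another gene such as Col6a3, was represented mainly by Col6a1. Col6a1 had 70, 49 and 75 counts in M9, M10 and the third library, against 48 and 71 in M11 and M12, a log2 ratio of -0.27 ± 0.46 (SE; adjusted p = 0.825, edgeR), with groups that overlap. Col6a3 had 1, 2 and 0 counts in the co-cultures, against 22 and 37, so it was near 0 in each co-culture. The 3 counts of M9 and M10 against 59 make a 24.6-fold lower count per total, with an exact binomial 95% interval from 8.03 to 123 for counting error only (adjusted p = 0.049). The call was lost without M11 (adjusted p = 0.194), without M12 (0.382), by limma-voom (0.0594), with upper quartile scaling (just above 0.05) and with all 5 libraries (0.286), and its lowest adjusted p among the alternatives was 0.000655. Col6a3 lies at bases 90765923 to 90843971 of chromosome 1 (GRCm38, minus strand). Col6a2 had 4, 10 and 6 counts against 4 and 12, and Col6a4 and Col6a6 had at most 3. Col6a5 had 51 counts in the third library, at most 2 in the other 4, and was not tested.

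Col7a1, the anchoring fibril of stratified epithelium, had 337, 422 and 118 counts in M9, M10 and the third library, against 219 and 142 in M11 and M12, a log2 ratio of 0.77 ± 0.34 (SE; adjusted p = 0.33, edgeR), and the third library was lower by a log2 difference of -1.68. Col8a1, a short chain of vessel walls, differed more between M9 and M10 than between the groups, with 20 and 381 counts, 0 in the third library, and 81 and 70 in M11 and M12. Its log2 ratio of 1.10 ± 1.13 (adjusted p = 0.695) was -2.17 without M10. Col8a2, Col10a1, Col26a1 and Col28a1 had at most 18 counts in any library. In all, 17 chains were not tested, with 1 to 30 counts summed over the 4 libraries, and 12 of the 44 had 0 counts in the third library.

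The low counts of connective tissue chains in the co-cultures stood beside lower counts of several markers of stellate cells, fibroblasts and other mesenchyme. Of 14 such markers, 7 were tested and 1, Rgs5, fell, where 1.25% of all genes fell. The median log2 ratio of the 7 was -2.48. Acta2 and Pdgfrb are among these 7 and passed the low-count filter only through the organoids alone. The filter thus tilts this median toward lower values, and it is no support for a direction. Acta2 of contractile myofibroblasts had 0, 0 and 10 counts in M9, M10 and the third library, against 9 and 86 in M11 and M12. Pdgfrb, a receptor of stellate cells and pericytes, had 2, 7 and 25 counts against 10 and 61, and Mfap4 was at 0 in all 5 libraries. The summed level of the list was 595 and 1435 CPM in M9 and M10 against 683 and 441 CPM in M11 and M12, of which Msln and Reln made up most. Msln and Reln were also the only tested markers with positive log2 ratios, 0.92 and 1.36, neither called. Without them, a choice made after their values were seen that fixes the direction of what remains, the sum was 6.89 and 4.46 CPM in M9 and M10 against 23.4 and 45.3 CPM in M11 and M12. On the scaling over 5 libraries the sum was 3.96 CPM in the third library against 24.8 and 47.7 CPM. Vim and Rgs5 made up most of the sum without Msln and Reln in every library. Thy1, Pi16, Des and Lhx2 overlapped between M9 and M10 and the organoids alone, so the sum does not speak for each marker. The part of mesenchymal cells in the collagen differences was not tested. For hepatocytes 1 of 4 tested markers, Alb, fell, where 1.25% of all genes fell. Ttr, Apoa1 and Hnf4a had positive log2 ratios, from 0.30 for Hnf4a to 2.74 for Apoa1, that were not called. For macrophages 1 of 3, Lyz2, fell, against the same 1.25%, while Cd68 and Csf1r had 0.79 and 0.47, not called. Alb and Lyz2 passed the low-count filter only through the organoids alone, so their direction is no separate support.

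Among genes that make and fold collagen, edgeR called the chaperone alone. Of 24 genes of synthesis and folding, 23 were tested, 1 fell and 0 rose, where 1.25% of all genes fell and 0.994% rose. The median log2 ratio of the list was -0.11. Serpinh1, the endoplasmic reticulum chaperone that binds procollagen, had 32, 109 and 70 counts in M9, M10 and the third library, against 2004 and 1726 in M11 and M12. All 3 co-cultures were far below both libraries alone. Serpinh1 averaged 2.03 ± 1.53 CPM in M9 and M10 and 66.4 ± 10.2 CPM in the organoids alone (SD, n = 2 each), a log2 ratio of -5.02 ± 0.55 (SE; adjusted p = 0.0203, edgeR), and the third library was at -5.79. The call was lost without M11 (-4.85, adjusted p = 0.0815), without M12 (-5.18, adjusted p = 0.0991), without a low-count filter (adjusted p = 0.11) and with all 5 libraries (0.0888), and the value was -6.12 without M10 and -4.40 without M9, both called. Serpinh1 lies at bases 99345376 to 99353239 of chromosome 7 (GRCm38, minus strand).

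Other genes of this list, picked after their values were seen, include the hydroxylase subunits P4ha1 and P4ha2, which modify prolines of the chains. P4ha1 was at 78.3 and 225 CPM in M9 and M10 against 44.9 and 35.7 CPM in M11 and M12, with a log2 ratio of 1.91 ± 0.49 (SE; adjusted p = 0.123, edgeR), and P4ha2 had 1.89 ± 0.41 (adjusted p = 0.0852). In the third library they were at 0.03 and -1.09. The lysyl hydroxylase Plod2 was at -0.29 ± 0.28 in M9 and M10 (adjusted p = 0.665) and at -2.38 in the third library. P4ha1 and P4ha2 do not stand for the list, in which 14 tested genes had a negative and 9 a positive log2 ratio. Sparc was at -3.15 ± 0.58 (adjusted p = 0.0587, edgeR). P3h1, P3h2 and P3h3 were at -0.94, -0.68 and -1.26, and P3h4 was at 1.18, none of them called.

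Of 17 genes of procollagen trimming and crosslinking, 12 were tested, 1 fell and 0 rose, where 1.25% of all genes fell and 0.994% rose. The median log2 ratio of the list was 0.11. Bmp1, the protease that removes the C-terminal propeptide of fibrillar chains, was at 39.5 and 47.7 CPM in M9 and M10 against 112 and 87.7 CPM in M11 and M12, a log2 ratio of -1.20 ± 0.20 (SE; adjusted p = 0.0468, edgeR). The call was lost without M11 (adjusted p = 0.28), without M12 (0.202), by limma-voom (0.0558) and with all 5 libraries (0.448), and the third library, at -0.44, was less far below. Of 12 collagen receptors 9 were tested and 0 called by edgeR (2 at an unadjusted p under 0.05, against 17.5% of all genes), with a median of 0.14. The most abundant were Itgb1, the shared beta subunit of collagen-binding integrins, at -0.41 ± 0.15 (adjusted p = 0.24), and Itga2, its alpha partner for type I collagen, at -0.70 ± 0.21 (adjusted p = 0.18) and -1.51 in the third library. Of 15 collagen-binding proteins 8 were tested and 0 called by edgeR (3 at an unadjusted p under 0.05, against 17.5% of all genes), with a median of -0.74. The most abundant, fibronectin (Fn1) and perlecan (Hspg2), were at 0.25 ± 0.21 (adjusted p = 0.615) and -0.40 ± 0.24 (adjusted p = 0.464). Over these 4 lists DESeq2 called 10 genes lower and 4 higher, against 4.05% and 3.81% of all genes. Some list genes tested by edgeR, among them Fkbp10, Adamts2, Mrc2 and Prelp, passed the low-count filter only through the organoids alone. The filter thus tilts the edgeR medians and counts of these lists toward lower values, and they are no support for a direction.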

How the data were processed

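RNA came from a PicoPure kit and libraries from a stranded total RNA kit with ribosomal RNA removal, per the labels' protocols. The submitters' processing notes list, without roles, the tools HISAT2 2.1.0, Trimmomatic 0.38, StringTie 2.1.3b, FastQC 0.11.7 and Bowtie2 2.3.4.1 and the builds mm10 and GRCh37; for the counter, its strand setting and the gene annotation, the answer is not given in the sources used here. The authors deposited estimated counts per Ensembl gene for 4 libraries, in 73925 rows of which 1 was kept for each of 52029 genes; columns name the group but no sample. For the third co-culture library they deposited whole-number counts per RefSeq gene; its column carries another library number than its record, which was followed. The 10 other columns of per-sample values were not used.

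Estimated counts were rounded and fitted in edgeR 4.0.16 (R 4.3.3; low-count filter by filterByExpr, TMM, robust quasi-likelihood test, Benjamini-Hochberg adjustment at 0.05); a standard error is the size of the log2 ratio over the square root of F. DESeq2 1.42.0 and limma-voom (limma 3.58.1) were alternatives. The tests were also run on simulated counts with a common dispersion for all genes and changes planted only in genes above a mean count. Such a run cannot show how they do for genes with few counts or a wide spread between libraries. The third library was joined by symbol (30869 genes, 91.9% of its counts), scaled by TMM over 5 libraries, and its log2 CPM, with prior count 2, set against the mean of M11 and M12. Lists covered collagen synthesis, trimming, receptors, binding proteins and markers of 5 cell types. Named were chains called, the 20 most abundant chains and, per list, called genes or the 2 most abundant; other names are described by counts or said to be picked later. Members and lists were chosen with earlier results of these data known. Positions and merged exon lengths are from GENCODE M21 (GRCm38), where all 44 chains matched by Ensembl ID.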

Additional observations from a re-analysis of the deposited data

How the results depend on the processing

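Of all genes, edgeR called 356, and the count was 1329 with DESeq2, 1404 without a low-count filter and 2 with all 5 libraries. It was 413 with library totals alone and 287 with limma-voom. The counts of chains and list genes below are to be read beside these totals, since the number called over all genes changed too. With single libraries left out it was 2619 without M9, 1114 without M10, 50 without M11 and 0 without M12 (1438 at an unadjusted p under 0.05). The 3 collagen chains called lower became 8 with DESeq2, 6 without a low-count filter, 1 with limma-voom, 0 with all 5 libraries and 0 to 6 with a library left out; the 0 called higher became 1 with DESeq2 (Col27a1), 1 without a low-count filter (Col11a2) and 0 to 4 with a library left out, the 4 without M9. On the 4 companion lists, the 2 called lower became 10 with DESeq2, 9 without a low-count filter, 4 with library totals alone, 1 with limma-voom, 0 with all 5 libraries and 0 to 11 with a library left out, and the 0 called higher became 4, 3 and, with a library left out, 0 to 7. Col8a1 changed sign with limma-voom (-0.040) and without M10 (-2.17). Left-out fits leave an arm with 1 library, assumed to vary like the other group; the causes were not tested. The third library lay below the organoids alone for 34 of 44 chains, and for 33 to 35 with other prior counts or no TMM. These 44 include the 17 untested chains and the 7 that passed the filter only through the organoids alone. Of the 19 that passed through both groups, 13 lay below, where 51.3% of the genes tested and found in both tables did. No paired analysis was possible because the columns carry library numbers and not the replicate numbers of the labels. The 17 untested chains have no replicate test, and the few with a count interval rest on counting error only.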
